A study of Mus musculus with 8 samples.

Results

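The interferon-induced transmembrane (Ifitm) genes of the mouse are described here in 2-cell embryos cultured with or without triclocarban. The family was taken as the 7 genes named Ifitm1, Ifitm2, Ifitm3, Ifitm5, Ifitm6, Ifitm7 and Ifitm10, out of 37310 genes measured, and all 7 were found by matching gene identifiers to symbols. Ifitm6 was selected on its FPKM, which was higher with triclocarban than in controls in these same libraries. The differences of the family members between the groups are therefore given as a description, with no test.

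Polyadenylated RNA was sequenced from mouse 2-cell embryos, and the values are FPKM (fragments scaled per kilobase of transcript and to the size of the library), that is, a share of each library. The control group held 4 libraries of embryos grown in G1 medium with the solvent DMSO, and the treated group held 4 libraries of embryos grown in G1 medium with 6 µM triclocarban (TCC), an antibacterial compound of soaps. Doses of 2 and 4 µM are also named for the culture experiment, but no library carries them as its label. The labels give no strain, parental age or hour of collection. They also leave unsaid whether replicate libraries had separate cultures or parents behind them, and the p-values thus reflect library-to-library spread alone, possibly a technical one.

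IFITM proteins are small membrane proteins with a conserved CD225 domain. Those induced by interferon sit in the plasma membrane and endosomes and restrict the entry of enveloped viruses by hindering membrane fusion. Ifitm1 and Ifitm3, also called Fragilis genes, mark cells that become primordial germ cells in the mouse embryo, and Ifitm5, also called Bril, is a gene of bone-forming osteoblasts.

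Libraries of a group were not equally alike. Controls 1 and 2 correlated at r = 0.974 across genes and controls 3 and 4 at r = 0.976, whereas correlations between these pairs lay between 0.874 and 0.907, as a description across genes, which are not independent replicates. Among treated libraries, TCC 2 stood lowest, at r = 0.909 to 0.917 with the other 3, which correlated at 0.967 to 0.982. With the treated libraries, controls 1 and 2 correlated at 0.837 to 0.884 and controls 3 and 4 at 0.696 to 0.740. Control 1 thus stood about as close to some treated libraries as to controls 3 and 4. Sums of FPKM ran from 477882 to 605986, and the depth is known only as a rough estimate of 6900000 to 14800000 fragments, TCC 2 being the shallowest. Genes at 1 FPKM or more numbered 12828 to 13541 in controls and 11788 to 11957 with TCC. Genes of the mitochondrial chromosome held 16.6 and 17.6% of FPKM in controls 1 and 2 and 22.6 and 24.3% in controls 3 and 4. With TCC they held 11.1 to 17.6%. Values of the family members are therefore also given without controls 1 and 2 and without controls 3 and 4. The labels name no batch. In bulk samples, fewer cells of a type and less RNA per cell cannot be told apart.

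Ifitm6 was the most abundant family member in treated embryos and the one with the largest difference in FPKM between the groups. It lies on the minus strand of chromosome 7 at chr7:141015699-141017924 (GRCm38), with Ifitm3 4928 bases away on the same strand. The coding sequences of both genes aligned over 296 bases with 205 identical (69.3%). A 90-base stretch of each is shown because the comparison of these neighbours rests on the reads being assignable to one or the other. The first is coding bases 70 to 159 of Ifitm6, at chr7:141016700-141016789 on the minus strand, and the second is the matching stretch of Ifitm3 from coding base 160, at chr7:141010397-141010486 on the minus strand. Both are written 5′ to 3′ from GENCODE M21 transcripts, and capitals mark the 26 bases of Ifitm3 that differ from Ifitm6.
Ifitm6: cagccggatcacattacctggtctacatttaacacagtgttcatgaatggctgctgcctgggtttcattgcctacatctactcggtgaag
Ifitm3: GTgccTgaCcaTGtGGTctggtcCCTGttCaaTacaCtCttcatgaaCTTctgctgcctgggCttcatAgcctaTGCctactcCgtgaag

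No 50-base window of the Ifitm6 transcripts, out of 854, occurred in a transcript of another gene. The coding sequence of Ifitm6 is 315 bases long and encodes 104 codons before the stop, against 414 bases and 137 codons for Ifitm3. How reads matching several genes were treated in the deposited values is not given in the sources used here.

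In control libraries 1 to 4 Ifitm6 stood at 188, 198, 51.7 and 51.4 FPKM. In TCC libraries 1 to 4 it stood at 752, 556, 822 and 952 FPKM. All 4 treated libraries lay above all 4 controls, and controls 1 and 2 lay 3.74 times above controls 3 and 4. The mean was 122 ± 81.7 FPKM in controls and 770 ± 165 FPKM with TCC (SD, n = 4 each), a ratio of means of 6.30. On the log2(FPKM + 1) scale the difference was 2.91 with a standard error of 0.46. Against controls 3 and 4 alone it was 3.85, and against controls 1 and 2 alone it was 1.97, so the direction was the same with either pair while the size depended on it. By mean FPKM, Ifitm6 ranked 672 of 37310 genes in controls and 74 with TCC.

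**Figure D1:**
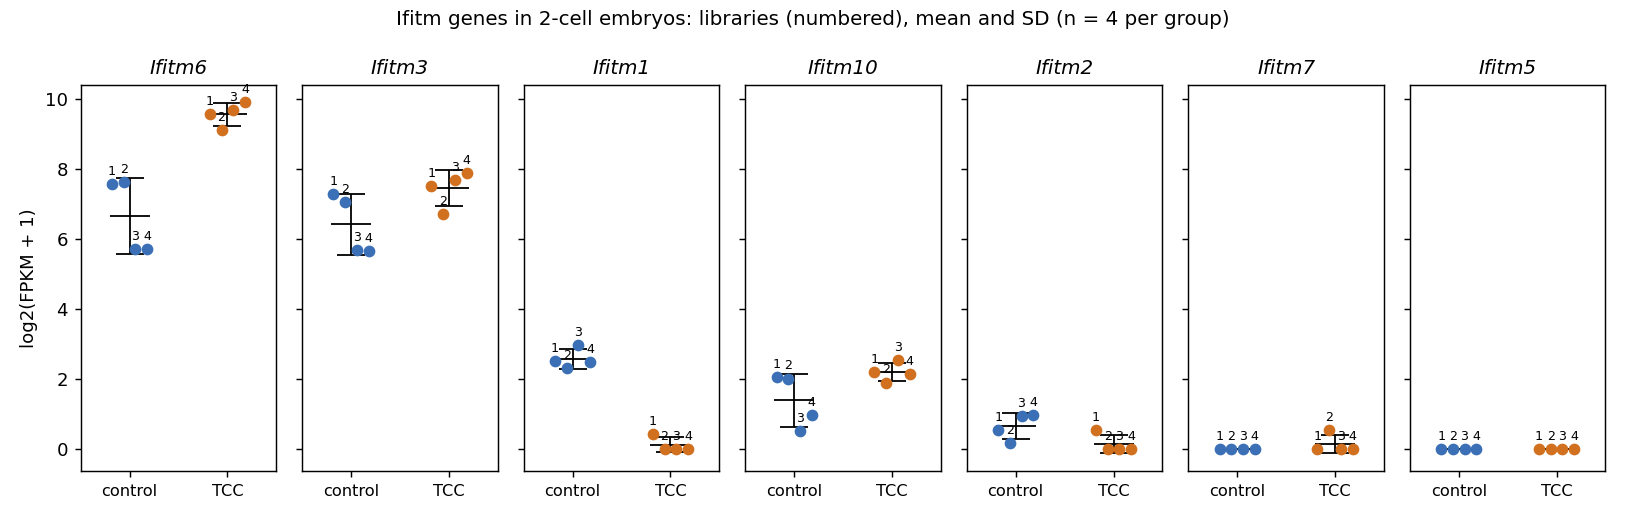
Log2(FPKM + 1) of the 7 Ifitm genes in each of the 8 libraries; numbered points are control libraries and libraries with 6 µM TCC, and lines give the group mean and SD (n = 4). Ifitm6 lies at 51.4 to 198 FPKM in controls and 556 to 952 FPKM with TCC, while Ifitm3 overlaps between the groups and Ifitm1 is at or near 0 with TCC.

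Ifitm3, the best known antiviral member, is at chr7:141009586-141010770 on the minus strand. It stood at 153, 133, 50.1 and 49.5 FPKM in controls 1 to 4 and at 182, 104, 205 and 234 FPKM in TCC 1 to 4. The groups overlapped, since TCC 2 lay below controls 1 and 2, and those controls lay 2.87 times above controls 3 and 4. The mean was 96.4 ± 54.5 FPKM in controls and 181 ± 55.7 FPKM with TCC (SD, n = 4 each), a log2 difference of 1.03 with a standard error of 0.42. Without controls 1 and 2 the difference was 1.78, and without controls 3 and 4 it was 0.28.

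Ifitm3 and Ifitm6 both stood higher in controls 1 and 2, and their ratio varied less among controls than either gene. In controls 1 to 4, FPKM of Ifitm6 over that of Ifitm3 came to 1.23, 1.49, 1.03 and 1.04, against 4.13, 5.35, 4.00 and 4.07 in TCC 1 to 4. Every treated library lay above every control. The mean ratio was 1.20 ± 0.21 in controls and 4.39 ± 0.64 with TCC (SD, n = 4 each), 3.67 times higher. Ifitm6 made up 47.0 to 58.6% of the summed FPKM of the family in controls and 79.6 to 83.9% with TCC. The family sum itself ran from 107 to 350 FPKM in controls and from 663 to 1189 FPKM with TCC.

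**Figure D2:**
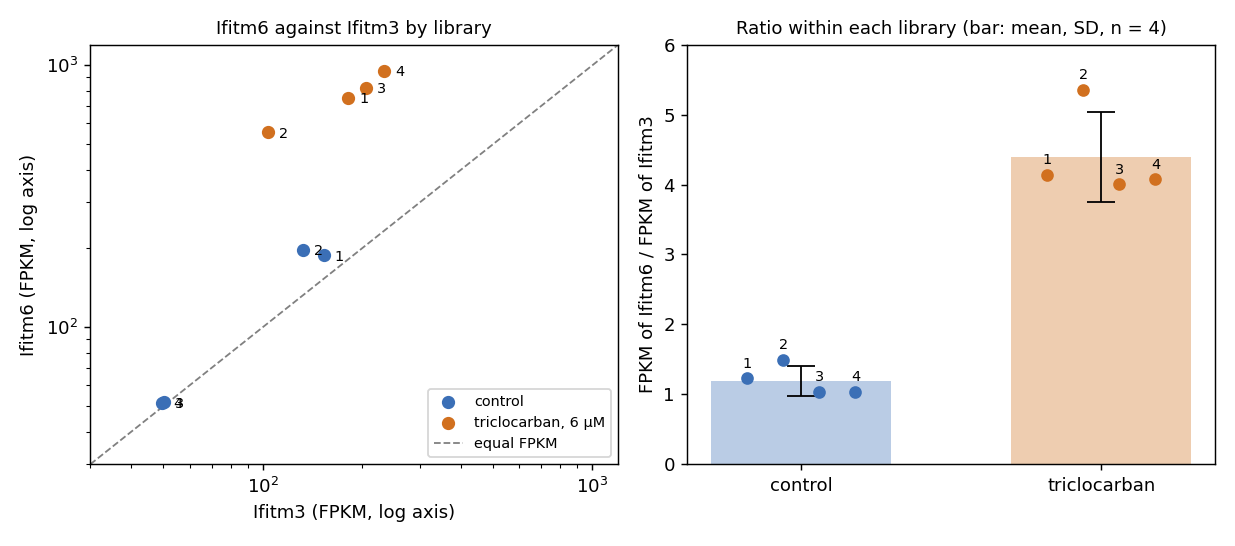
Ifitm6 against Ifitm3 in FPKM for each library on log axes (left, with a dashed line at equal FPKM), and their ratio by group (right, bars for the mean and SD, n = 4); numbered points are libraries. The ratio is 1.03 to 1.49 in controls and 4.00 to 5.35 with TCC, and controls 1 and 2 lie apart from controls 3 and 4 in both genes.

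Ifitm1, at chr7:140967221-140969825 on the plus strand, went the other way. It stood at 4.64, 3.97, 6.84 and 4.52 FPKM in controls 1 to 4, at 0.348 FPKM in TCC 1 and at 0 in TCC 2, 3 and 4. All treated libraries lay below all controls, and the pairs of controls did not differ in one direction. The log2(FPKM + 1) difference was -2.45 with a standard error of 0.23. Without controls 1 and 2 it was -2.61, and against controls 1 and 2 alone it was -2.30. Its size rests on the pseudocount, being -5.10 with 0.1 and -0.97 with 5, so no fold is given. With the rough estimate of depth, these levels stand for about 56 to 98 fragments in each control and about 5 in TCC 1. Ifitm1 passed the filter on low values through the controls only. Of its 50-base windows, 53 of 1056 (5.02%) occurred in transcripts of other genes, and none of its 150-base windows did.

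Ifitm10 lies outside the cluster, at chr7:142325837-142373753 on the minus strand. It stood at 3.13, 3.02, 0.428 and 0.958 FPKM in controls 1 to 4 and at 3.57, 2.71, 4.75 and 3.40 FPKM in TCC 1 to 4. The groups overlapped through TCC 2, and controls 1 and 2 lay 4.44 times above controls 3 and 4. The log2(FPKM + 1) difference was 0.80 with a standard error of 0.36, from a mean of 1.88 ± 1.39 FPKM to 3.61 ± 0.85 FPKM (SD, n = 4 each). Without controls 3 and 4 it was 0.16, and without controls 1 and 2 it was 1.44.

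The other 3 members were at or near 0. Ifitm2, an interferon-induced gene of the cluster at chr7:140954837-140955987, stood at 0.119 to 0.945 FPKM in controls, at 0.451 FPKM in TCC 1 and at 0 in TCC 2, 3 and 4. Of its 606 windows of 50 bases, 294 (48.5%) occurred in transcripts of other genes, so these low values are uncertain. Ifitm7, which lies alone on chromosome 16 at chr16:13981699-13986888, was listed at 0 in all libraries but TCC 2, at 0.446 FPKM. Ifitm5 was listed at 0 in all 8 libraries, and 181 of its 716 windows of 50 bases (25.3%) occurred in transcripts of another gene.

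By mean FPKM with TCC the order was Ifitm6, Ifitm3, Ifitm10 and then Ifitm1, Ifitm2 and Ifitm7, which were all near 0. In controls Ifitm6 stood above Ifitm3 in each library, by 1.03 to 1.49 times, and Ifitm1 stood above Ifitm10. In all, 4 of the 7 members passed the filter of at least 1 FPKM in at least 4 libraries. In a limma fit over 12941 genes, 42.1% of genes passed an adjusted p of 0.05, 11.3% higher and 30.8% lower with TCC. All 4 TCC libraries lay above all controls for 1322 of these genes (10.2%) and below for 3882. These shares are the background against which the counts of other gene lists are set. No call is given for the members, since the same contrast chose Ifitm6.

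The median log2 difference over all genes tested was -0.19, and it moved to 0.06 with median-of-ratios scaling and to 0.14 with quantile normalization. The share of called genes that were higher with TCC moved with it, from 26.9% to 45.3% and 50.6%. Relative to the median of all genes, the difference was 3.10 for Ifitm6, 1.23 for Ifitm3, 1.00 for Ifitm10 and -2.26 for Ifitm1. The direction of these 4 genes was the same under both scalings.

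Promoters of the family were read for sequence features, since interferon acts through the element GAAA-NN-GAAA (the interferon-stimulated response element, N being any base) and through TTC-NNN-GAA (bound by STAT dimers). Both strands were searched over 250 bases before to 50 bases after each RefSeq start, together with TATAAA, in 9 promoters of the family and in 32851 promoters of the genome. GAAA-NN-GAAA was in 2 of the 9 and in 3.44% of all promoters, TTC-NNN-GAA in 2 of the 9 and in 8.30%, and TATAAA in 2 of the 9 and in 13.6%. The Ifitm6 promoter, which had TATAAA and TTC-NNN-GAA, is shown as the 250 bases before the start at chr7:141016893-141017142 on the minus strand. The first 30 bases from the start of Ifitm3, at chr7:141010715-141010744 on the minus strand, are shown because they hold GAAA-NN-GAAA. For the same reason a 30-base stretch upstream of Ifitm2 is shown, at chr7:140955988-140956017 on the minus strand. Its match lies at bases -46 to -37 from the RefSeq start, so the stretch does not reach that start. Sequences are from RefSeq (GRCm38.p6), 5′ to 3′, and capitals mark matches; in Ifitm3 a TTC-NNN-GAA match overlaps the second GAAA-NN-GAAA match.
Ifitm6: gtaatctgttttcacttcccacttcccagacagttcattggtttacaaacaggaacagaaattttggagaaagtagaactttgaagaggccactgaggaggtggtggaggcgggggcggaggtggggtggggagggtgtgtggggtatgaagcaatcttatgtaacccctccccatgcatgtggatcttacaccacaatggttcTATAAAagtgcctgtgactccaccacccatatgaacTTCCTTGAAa
Ifitm3: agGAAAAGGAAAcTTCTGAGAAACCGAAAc
Ifitm2: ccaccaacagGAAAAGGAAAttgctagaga

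No GAAA-NN-GAAA match was found in the window of Ifitm6. A match is a description of letters, and the absence of one says only that they are not in this window. One GENCODE transcript of Ifitm6 starts 16 bases further upstream than the RefSeq start used here. The whole GENCODE span of the gene reaches further, to chr7:141017924, while the window read ends at chr7:141017142. Any start near that far end was therefore not covered.

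The genes whose levels followed Ifitm6 most closely over the 8 libraries were Tex26, at Pearson r = 0.998 of log2(FPKM + 1), Psmd9, a proteasome assembly chaperone, at 0.997, and Dap3, a protein of the small mitochondrial ribosomal subunit, at 0.996. Krt12, a keratin of the cornea, and Ceacam10, a member of the carcinoembryonic antigen family, followed at 0.996 each. These were the top 5 of 7523 named genes compared. The libraries fall into groups, so these correlations carry the difference between groups and that between the pairs of controls, and no p is given. Tex26 stood at 29.9, 29.6, 6.83 and 7.15 FPKM in controls and at 95.6, 73.3, 119 and 115 FPKM with TCC, with the same order of the pairs of controls as Ifitm6. Ifitm3 correlated with Ifitm6 at 0.897 and ranked 769.

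The chromosome 7 cluster of Ifitm5, Ifitm2, Ifitm1, Ifitm3 and Ifitm6 spans 68.967 kb, and no other gene with matched coordinates lies between its members. Of 72 genes within 250 kb of a family member, 26 were tested, of which 1 rose, 12 fell and 13 did not pass the threshold, which is 3.85% higher and 46.2% lower against 11.3% and 30.8% over all genes. Their median log2 difference was -0.52 against -0.19. Sigirr and Pkp3 passed the filter through the controls only, being under 1 FPKM in every TCC library. Beyond the Ifitm6 end of the cluster, all 8 tested of 16 genes fell. Ptdss2, which makes phosphatidylserine, fell from 92.4 ± 28.9 to 12.2 ± 3.12 FPKM (SD, n = 4 each), a limma log2 difference of -2.81 with an adjusted p of 7.83e-05. Phrf1, a ubiquitin ligase, fell by 2.37 on the log2 scale (limma adjusted p = 0.000707), and Sigirr, an inhibitory receptor of interleukin-1 signalling, fell by 1.43 (limma adjusted p = 0.000143; 0.00175 with no filter). Pkp3, a desmosome plaque protein and the nearest tested gene at 60294 bases, fell by 0.79 (limma adjusted p = 0.0161), but did not pass with quantile normalization, with no filter, without TCC 3, without TCC 4 or without controls 1 and 2, at adjusted p of 0.181, 0.0694, 0.0504, 0.0618 and 0.0526 in that order.

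Beyond the other end of the cluster, 7 of 15 genes were tested and 1 fell. That gene was Psmd13, a proteasome subunit and the nearest tested gene at 50315 bases, which fell from 4.74 ± 1.93 to 1.11 ± 0.285 FPKM, with a log2 difference of -1.39 (limma adjusted p = 0.002, n = 4 each). None of the 3 tested genes around Ifitm10 passed the threshold. Ctsd, a lysosomal protease 2158 bases away, had a log2 difference of 0.09, which turned to -0.25 without control 4 and to -0.51 without controls 3 and 4. The nearest tested gene on the other side was Mob2, 264772 bases away and thus outside the count, with a log2 difference of -0.38 that was 0.02 with quantile normalization. Around Ifitm7, 1 of 8 tested genes rose (Myh11) and 3 fell (Rrn3, Nde1 and Pdxdc1, named like Myh11 after their values were seen). Myh11 did not pass with no filter, without control 3, without control 4 or without controls 3 and 4, at adjusted p of 0.0943, 0.0609, 0.0676 and 0.184, and the call of Pdxdc1 was lost under 10 alternatives. Its nearest tested neighbours were Mpv17l, with a log2 difference of -0.56 that did not pass (limma adjusted p = 0.0523; 0.0132 with no filter, 0.0437 with a pseudocount of 5, 0.0441 without TCC 2 and 0.0498 without controls 3 and 4), and Marf1, a regulator of oocyte transcripts, with one of -0.07 that changed sign with either scaling, without control 1 and without controls 1 and 2. The gene 2900011O08Rik overlaps Ifitm7 on the opposite strand and was below the filter, at no more than 1.21 FPKM.

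**Figure D3:**
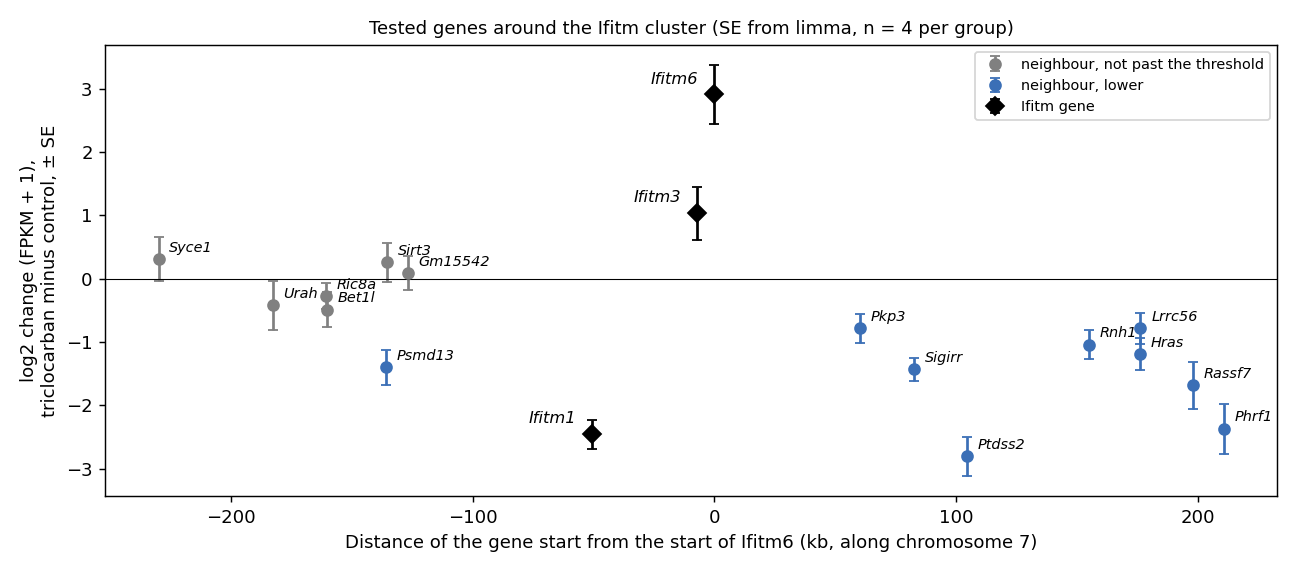
Log2(FPKM + 1) difference, TCC minus control, of tested genes around the chromosome 7 Ifitm cluster against the distance of each gene's start from that of Ifitm6 in kb; blue points passed the limma threshold as lower, grey points did not pass, black diamonds are Ifitm genes, and bars are standard errors. Ifitm6 stands at 2.91 and Ifitm3 at 1.03, while the 8 tested genes beyond the Ifitm6 end lie between -2.81 and -0.78.

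The family is named for its induction by interferon, and a list of other interferon-stimulated genes was read for comparison. Of 75 such genes in the table, 34 were tested: 7 rose, 10 fell and 17 did not pass the threshold, which is 20.6% higher and 29.4% lower against 11.3% and 30.8% over all genes. Of these 34, 4 passed the filter through the controls only and 1 through the TCC libraries only, each through the group where it was high. The median log2 difference of the 34 was 0.02, or 0.21 above that of all genes. Without controls 1 and 2 the number that rose was 12, and without controls 3 and 4 it was 2. The number over all 12941 genes tested moved the same way, from 1466 to 2838 and 695. Of the 41 genes below the filter, 30 stayed below 1 FPKM in every library. These included standard markers of an interferon response: the highest value in any library was 0.323 FPKM for Isg15, a ubiquitin-like modifier, 0.448 FPKM for Mx1, an antiviral GTPase, and 0.0584 FPKM for Ifit3, a binder of viral RNA. Oas1a, an oligoadenylate synthetase, reached 0.359 FPKM. In 2 other genes below the filter, named after their values were seen, the groups did not overlap. How often groups do not overlap among all genes below the filter was not counted. Ifit1, a relative of Ifit3, stood at 0.0857 to 0.363 FPKM in controls and 0.641 to 1.28 FPKM with TCC, and Irf7, a transcription factor of the interferon response, at 0.717 to 5.04 FPKM in controls and 0 to 0.305 FPKM with TCC.

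The 7 genes that rose, named after their values were seen, were Oas1c, Oas1d, Oas1e, Oas1f, Oas1h, Ifit1bl1 and Ifit1bl2. They belong to families of close copies, so the assignment of reads among them is uncertain. Oas1e went from 70.4 ± 51.1 to 435 ± 182 FPKM, a log2 difference of 2.81 (limma adjusted p = 0.0023, n = 4 each). Oas1d, an oocyte-expressed member of the Oas1 family, went from 146 ± 77.2 to 645 ± 302 FPKM, a log2 difference of 2.10 (limma adjusted p = 0.00668, n = 4 each), with TCC 2 at 199 FPKM inside the range of the controls. Its call was lost without controls 3 and 4, at an adjusted p of 0.0965, and with no filter, at 0.0798. Calls of Oas1f, Oas1c, Ifit1bl1 and Ifit1bl2 were lost under 7, 6, 2 and 2 alternatives, among them both of these. All 7 stood higher in both controls 1 and 2 than in both controls 3 and 4, as Ifitm6 did, and 78.5% of the 1466 genes that rose overall had that order.

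Among the genes that fell were Ifi35, an interferon-induced leucine zipper protein, and Trim25, a ubiquitin ligase of the RIG-I pathway. Ifi35 fell from 38.2 ± 18.9 to 2.23 ± 1.07 FPKM, a log2 difference of -3.53 (limma adjusted p = 8.7e-05, n = 4 each). Trim25 fell from 5.27 ± 0.54 to 0.204 ± 0.135 FPKM, a log2 difference of -2.38 (limma adjusted p = 4.03e-05). Psmb10, a subunit of the immunoproteasome, fell by 2.06 (limma adjusted p = 0.000231), and Irf9, described with the signalling genes, fell by 1.88 (limma adjusted p = 0.000159). Trim25, Psmb10 and Irf9 were under 1 FPKM in every TCC library and passed the filter through the controls only. With no filter their adjusted p was 0.000644, 0.00603 and 0.00319. Bst2, or tetherin, which holds budding virus at the cell surface, had a log2 difference of -0.16 that did not pass (limma adjusted p = 0.787) and changed sign with either scaling and without TCC 2.

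**Figure D4:**
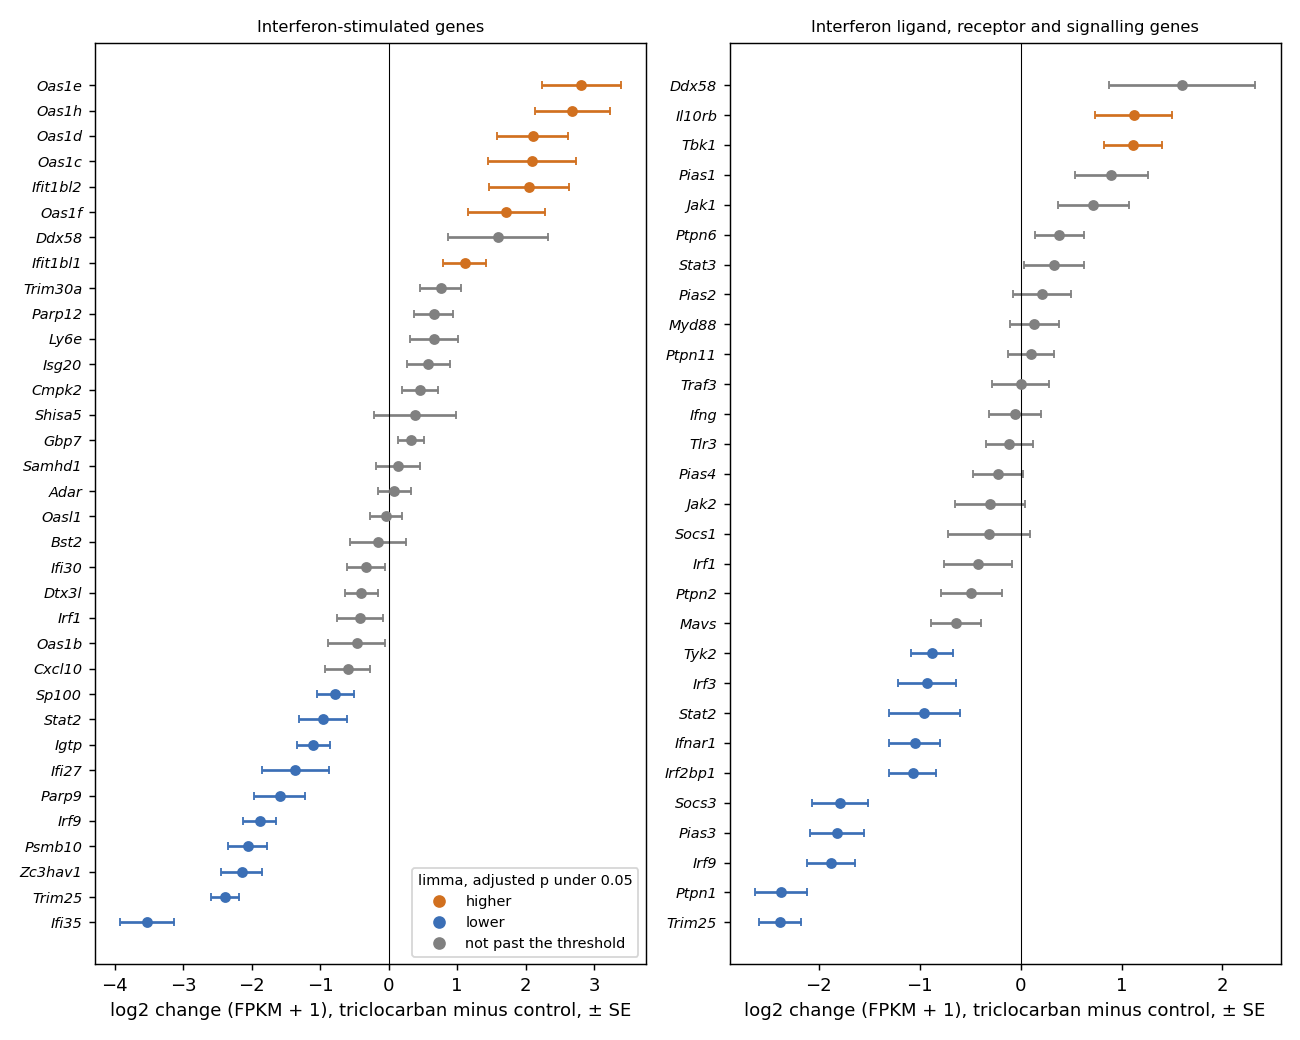
Log2(FPKM + 1) difference, TCC minus control, of each tested gene of the interferon-stimulated and interferon signalling lists; points are genes with standard errors, orange for higher and blue for lower at a limma adjusted p under 0.05, and grey where the threshold was not passed. The genes that rose among the first list are Oas1 and Ifit1bl copies, and Ifi35, at -3.53, lies lowest.

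Genes that carry the interferon signal were read by role. Of 55 genes found, 29 were tested, of which 2 rose, 10 fell and 17 did not pass, which is 6.90% higher and 34.5% lower against 11.3% and 30.8% over all genes. Their median log2 difference was -0.31, and 10 of the names are shared with other lists. Among 11 ligands only Ifng was tested and it did not pass, at no more than 2.88 FPKM, and the highest of the rest was Ifnk at 0.525 FPKM. Among 6 receptor genes 4 were below the filter, among them Ifnar2, at 0.178 ± 0.105 FPKM in controls and 0.459 ± 0.333 FPKM with TCC, and Ifngr1, at 1.47 ± 0.919 and 0.466 ± 0.297 FPKM (SD, n = 4 each). Il10rb, a shared chain of interleukin-10 and type III interferon receptors, rose by 1.12 (limma adjusted p = 0.0338), a call lost under 7 alternatives, and was named after its value was seen. Ifnar1, a chain of the type I interferon receptor, fell from 6.30 ± 0.63 to 2.59 ± 0.87 FPKM, a log2 difference of -1.05 (limma adjusted p = 0.00627, n = 4 each), although its adjusted p was 0.0537 with quantile normalization.

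Of 7 kinases and transcription factors of the pathway, 6 were tested and 3 fell, where 30.8% of all genes tested fell. Irf9, which binds the response element as part of a complex with STAT proteins, fell from 3.96 ± 1.16 to 0.331 ± 0.204 FPKM, a log2 difference of -1.88 (limma adjusted p = 0.000159, n = 4 each). Tyk2, a kinase of the receptor, fell by 0.88 (limma adjusted p = 0.00601), with an adjusted p of 0.0841 under quantile normalization. Stat2 fell by 0.95 (limma adjusted p = 0.0454), a call that was lost under 11 of the alternatives, for example at 0.386 without controls 3 and 4 and at 0.0636 with the replicate block. Jak1, the partner kinase, had a log2 difference of 0.72 that did not pass (limma adjusted p = 0.12), but it passed with median-of-ratios scaling, at 0.0244, and without controls 1 and 2, at 0.00598.

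Of 14 sensors and adaptors, 7 were tested, of which 1, the kinase Tbk1, rose by 1.11 (limma adjusted p = 0.00858) and 1, Trim25, fell. Over all genes tested, 11.3% rose and 30.8% fell, and counts of so few genes are not read as a result about a role. Of 11 inhibitors of the pathway, 10 were tested and 3 fell, a share close to that over all genes. Ptpn1, a phosphatase of JAK2 and TYK2, fell by 2.38 (limma adjusted p = 7.83e-05), and Pias3, an inhibitor of STAT3, fell by 1.82 (limma adjusted p = 0.000323). The third was Socs3. Of 6 further genes, of interferon regulatory factors or of proteins that bind them, 3 were tested and 2 fell. These were Irf3 and the binding protein gene Irf2bp1. Tbk1, Socs3, Irf3 and Irf2bp1 were named after their values were seen. The call of Irf3 was lost under 8 alternatives and that of Irf2bp1 with quantile normalization, and Irf2bp1 passed the filter through the controls only.

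Genes whose products modify or bind IFITM proteins were fewer. Of 15 such genes, 11 were tested, of which 0 rose, 3 fell and 8 did not pass, which is 0% higher and 27.3% lower against 11.3% and 30.8% over all genes. Their median log2 difference was -0.55. Zdhhc7, a palmitoyltransferase, fell from 14.7 ± 4.90 to 4.55 ± 1.20 FPKM, a log2 difference of -1.47 (limma adjusted p = 0.00223, n = 4 each), and Vcp, an ATPase of endosomal and proteasomal sorting, fell by 1.35 (limma adjusted p = 0.00331). Osbp, an oxysterol carrier, fell by 0.76 (limma adjusted p = 0.0241), a call lost under 8 alternatives, for example at 0.276 with quantile normalization. Zdhhc20, the palmitoyltransferase best known for IFITM3, had a log2 difference of -0.81 that did not pass (limma adjusted p = 0.0542), and its adjusted p was 0.0279 without control 1, 0.0357 without control 2 and 0.00264 without both. Zmpste24, a protease that acts with IFITM proteins, had one of -0.55 (limma adjusted p = 0.0791; 0.0443 with no filter and 0.026 without controls 1 and 2). Of 7 other genes with a CD225 domain in the table, only Syndig1 was tested, at a log2 difference of 0.27 that did not pass.

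Because Ifitm1 and Ifitm3 mark early germ cells, other germ cell genes were read beside them. Of 23 found, 18 were tested, of which 5 rose (Dazl, Dppa3, Nanos2, Tdrd1 and Prdm1), 5 fell (Nanos3, Piwil2, Dnd1, Tfap2c and Sox2) and 8 did not pass, which is 27.8% in each direction against 11.3% higher and 30.8% lower over all genes. Their median log2 difference was 0.09. Calls of Prdm1, Sox2 and Tdrd1, named after their values were seen like Nanos2 and Tfap2c, were lost under 10, 7 and 2 alternatives. Dazl, an RNA-binding protein of oocytes and germ cells, rose from 59.7 ± 33.6 to 201 ± 24.4 FPKM, a log2 difference of 1.91 (limma adjusted p = 0.00216, n = 4 each). Nanos3, an RNA-binding protein that primordial germ cells need to survive, fell by 1.83 (limma adjusted p = 0.000906), Piwil2 of the piRNA pathway fell by 1.59 (limma adjusted p = 0.000954), and Dnd1, a partner of NANOS proteins, fell by 1.29 (limma adjusted p = 0.00248). Nanos3, Piwil2 and Dnd1 passed the filter through the controls only, and with no filter their adjusted p was 0.0198, 0.0118 and 0.0302. Dppa3, a maternal factor also known as Stella, rose from 2518 ± 876 to 4668 ± 1050 FPKM (limma adjusted p = 0.0348, n = 4 each), a call lost under 8 alternatives, for example at 0.165 without controls 1 and 2. Prdm14, a specifier of germ cells, was below the filter, at 3.50 ± 3.49 FPKM in controls and 0.273 ± 0.175 FPKM with TCC (SD, n = 4 each).

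Markers of the labelled stage and of other cell types moved with the groups in part. Of 10 markers of the 2-cell embryo 8 were in the table, all at 1 FPKM or more in some library, and their summed level was 604 to 855 FPKM in controls and 375 to 1019 FPKM with TCC. Single markers went apart: Zfp352 and Tdpoz4 had log2 differences of -1.14 and -1.51, and Zscan4c, Zscan4f and Usp17la of 1.27, 1.35 and 1.29. Their calls were lost under 4, 2, 7, 6 and 2 alternatives in that order, and the groups overlapped for Zscan4c and Zscan4f. Zscan4d, Usp17lc and Gm8300, at 0.60, -0.14 and -0.31, did not pass the threshold. The 12 oocyte markers, mostly Oosp1, Bmp15 and Npm2, summed to 1895 to 4094 FPKM in controls and 5276 to 6300 FPKM with TCC. Controls 1 and 2 stood above controls 3 and 4, the same order as Ifitm6, Ifitm3 and Ifitm10. However, Zp3 had a log2 difference of -1.14 and Zp1 of -0.08, and Zp1, Zp2, Gdf9 and Mos did not pass the threshold. The 12 blood and myeloid markers summed to 44.3 to 76.1 FPKM in controls and 7.19 to 33.3 FPKM with TCC, carried mostly by Hba-a1 at 37.8 to 68.2 and 6.99 to 26.9 FPKM, while S100a8, S100a9, Tyrobp and Hbb-bs were at 0 in all libraries and Lyz2 averaged 0.70 FPKM in controls and 2.52 FPKM with TCC. The 6 oviduct markers, mostly Epcam, summed to 73.8 to 108 FPKM in controls and 7.15 to 10.2 FPKM with TCC. Epcam averaged 81.4 FPKM in controls and 4.23 FPKM with TCC, but Ovgp1 averaged 1.73 and 1.53 FPKM. The groups overlapped for Ovgp1, Krt8 and Krt18, and Foxj1 and Pax8 were near 0. The 13 cumulus and granulosa markers summed to 5.47 to 10.2 FPKM in controls and 9.45 to 18.5 FPKM with TCC, mostly Cyp19a1 and Fshr, while Tnfaip6 averaged 3.30 FPKM in controls and 0.331 FPKM with TCC and Amh and Inha were at 0. The 6 sperm markers, mostly Prm2, summed to 1.12 to 5.90 and 7.23 to 10.4 FPKM. The part of any of these in the levels of the Ifitm genes was not tested.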

How the data were processed

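Polyadenylated RNA of 4 control and 4 triclocarban libraries was analysed from 1 table of FPKM per gene deposited by the authors. The submitters' processing notes name STAR, StringTie, featureCounts, DESeq2 1.30.1 and mm10, with no role or order. For annotation release, strand setting and multiply matching reads, the sources used here give nothing. The labels' protocols describe paired reads of 150 bases and more than one library kit. FPKM depends on each library's total, so a change of abundant transcripts shifts all other values. Fragment counts are not given, so no count test was run.

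Identifiers were matched to GENCODE M21 (GRCm38): 32620 (87.4%) matched. Genes reaching 1 FPKM in 4 or more of the 8 libraries were tested with limma 3.58.1 in R 4.3.3 (lmFit, eBayes with trend) on log2(FPKM + 1), the pseudocount being 1, with treatment as the only term, two-sided, Benjamini-Hochberg adjusted over all genes at 0.05. The log2(FPKM + 1) scale understates changes of low genes. Tables and sequences used Python 3.11.15, pandas 2.3.3, numpy 2.4.6 and Biopython 1.88. The limma step was tested on simulated data.

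The members and the lists (interferon-stimulated, interferon signalling, CD225 relatives, IFITM partners, germ cell, neighbours within 250 kb) were chosen with earlier results of these data known. Named were all members, the up to 4 called genes of lowest adjusted p per list, 18 genes set for their roles, the nearest tested or overlapping neighbours, and the 5 genes most correlated with Ifitm6. Others are named where stated. An item that this rule takes is not reported here. Alternatives were pseudocounts of 0.1 and 5, no filter, a filter at 5 FPKM, median-of-ratios and quantile scaling, the replicate number as a block, and leaving out each library or a pair of controls.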

Additional observations from a re-analysis of the deposited data

Results flagged for a closer look

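In 15 groups of 4 libraries, each the values of a family member or of a ratio between members, the highest or lowest library was compared with the rest. In 4 of them a single library stood far from the others by Dixon's criterion. Chance meets it in about 5% of groups, a rate that does not apply to the 3 groups below in which all libraries but 1 were at 0, since these meet it by construction. Ifitm1 was at 0.348 FPKM in TCC 1 and at 0 in the other treated libraries. Ifitm2 was at 0.451 FPKM in TCC 1, also the only treated library above 0. Ifitm7 was at 0.446 FPKM in TCC 2 and at 0 elsewhere. The ratio of Ifitm6 to Ifitm3 was 5.35 in TCC 2, against 4.00 to 4.13 in the other treated libraries.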

How the results depend on the processing

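The log2 difference of Ifitm6 lay between 2.59 and 3.23 when 1 library was left out, was 3.85 without controls 1 and 2, and came to 1.97 if controls 3 and 4 were left out. Deviations of same-numbered control and TCC libraries correlated at 0.338, 0.053, 0.095 and 0.104, and those of differently numbered libraries at -0.293 to 0.144. These values cannot tell a weak pairing by replicate number from none. With the replicate block 1544 genes rose and 4061 fell, against 1466 and 3981. Leaving out 1 library gave 953 to 1860 genes higher and 3469 to 4180 lower. The number of genes higher was 819 with no filter, 2637 with median-of-ratios scaling, 2915 with quantile normalization, 2838 without controls 1 and 2, then 695 without controls 3 and 4, and the number lower was 2492 with the filter at 5 FPKM. In the same 5 settings, 3, 12, 13, 12 and 2 interferon-stimulated genes rose and 1, 4, 5, 6 and 1 signalling genes rose. With the filter at 5 FPKM, 2 interferon-stimulated, 3 signalling, 1 germ cell and 6 neighbouring genes fell, and with quantile normalization 5 signalling genes fell. Of the IFITM partner genes, 1 rose with median-of-ratios scaling, and 2 rose and 6 fell without controls 1 and 2. Germ cell genes that rose numbered 2 with no filter and 3 without controls 3 and 4, and neighbours that rose numbered 0 in both. Leaving out 1 library gave 1 to 4 signalling genes higher, 2 to 5 partner genes lower, 3 to 5 germ cell genes higher and 0 to 1 neighbours higher. The cause of these differences was not tested. Depth is known only roughly, which limits values near 0, those of Ifitm1 with TCC, Ifitm2, Ifitm5 and Ifitm7 in particular.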
